A study of Mus musculus with 9 samples.

Results

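Neurotrophins are secreted growth factors that keep neurons alive and shape their synapses, and they act through 2 kinds of receptor. Each binds a receptor tyrosine kinase of the Trk family, and all of them bind the p75 receptor, which is encoded by Ngfr. Sortilin, encoded by Sort1, pairs with p75 to bind the unprocessed proneurotrophins and also sorts brain-derived neurotrophic factor (BDNF) inside cells. In the striatum most BDNF protein arrives in axons from the cortex, and a reduced supply has long been studied in Huntington disease.

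The genes described here are the neurotrophins and their receptors, named by symbol as Bdnf, Ntf3, Ntf5, Ntrk2, Ntrk3, Ngfr and Sort1. Every probe set that the platform annotation assigns to exactly 1 of these 7 genes was taken, and a gene's main probe set is the brightest by its mean over the 9 arrays. This gave 25 of the 45101 probe sets, belonging to 6 of the 18194 genes measured. They were 2 for Bdnf, 1 for Ntf5, 8 for Ntrk2, 8 for Ntrk3, 3 for Ngfr and 3 for Sort1. Ntf3, which encodes neurotrophin-3, was not analysed here.

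Striatal RNA came from 5 R6/2 mice and 4 wild-type mice, all female, of C57Bl/6 / CBA background and 12 weeks old, with 1 array for each mouse. R6/2 mice are a transgenic model of Huntington disease that expresses exon 1 of human HTT carrying an expanded CAG repeat. The R6/2 mice were R62_86, which was 85 days old, and R62_95, R62_105, R62_107 and R62_109, which were 83 days old. The wild-type mice were WT_46, WT_47, WT_49 and WT_66, all 85 days old. Values are log2 expression, so a difference of 1 is a doubling, and every difference is R6/2 minus wild-type with its standard error unless stated otherwise.

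The labelled tissue could be checked on marker genes. The 13 measured markers of spiny projection neurons, the main striatal cell type, all fell in R6/2, beside 7.57% of all genes. Their mean log2 level was 9.58 to 10.50 in R6/2 mice and 11.52 to 11.89 in wild-type mice. Of 9 microglia markers 4 fell, of 9 oligodendrocyte markers 3, and of 9 endothelial and mural markers 0, and none of these rose. In such bulk samples, fewer cells of a type and less RNA per cell cannot be told apart. The mean of 8 choroid plexus markers was 5.08 to 6.89 in R6/2 mice and 5.58 to 8.49 in wild-type mice, with R62_107, WT_47 and WT_66 the highest mice. The array controls for beta-actin read 3' minus 5' differences of 1.24 in R62_95 and 0.79 in WT_49, against 0.45 to 0.58 in the other mice. For Gapdh the same difference was 0.40 in R62_95 and -0.06 in WT_49, against -0.22 to -0.11 in the other mice.

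Bdnf lies on chromosome 2 (109674700 to 109727043, GRCm38.p6) and is read from several promoters. RefSeq windows of 300 bases around transcript starts were matched for 4 of the 7 genes, 7 windows for Bdnf, 2 for Ntf3 and 1 each for Ngfr and Ntrk2. The Bdnf window below, chr2:109692186-109692485 on the plus strand, is shown because the factor Creb1 and the kinase Camk4, described further on, act on Bdnf through a cAMP response element. Capitals mark its match to TGACG, the core of that element, which was searched on both strands and reads here as the reverse complement.
Bdnf: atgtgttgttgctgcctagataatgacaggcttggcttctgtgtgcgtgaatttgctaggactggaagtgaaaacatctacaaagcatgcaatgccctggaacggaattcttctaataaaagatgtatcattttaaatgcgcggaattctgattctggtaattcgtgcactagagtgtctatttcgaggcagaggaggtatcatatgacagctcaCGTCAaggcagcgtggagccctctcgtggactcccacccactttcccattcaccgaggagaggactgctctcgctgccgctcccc
These letters were found in 20.8% of 32851 windows of the same length. The full element TGACGTCA was found in 1.79% of windows and the E-box CACGTG in 7.15%. None of the 7 Bdnf windows held the full element or the E-box, and only the window shown held TGACG. A match is a description of the letters and not a measured binding site.

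Among the 6 measured genes, 1 passed the test in the fit over all genes. Ntrk3, the receptor for neurotrophin-3, fell in R6/2, and Bdnf, Ntf5, Ntrk2, Ngfr and Sort1 did not pass. This was 1 of 6 beside a background of 16.8% of all genes called in either direction and 7.57% called lower, so the share called was near the background. At an unadjusted p under 0.05 there were 3 of 6, beside 31.2% of all genes. The median difference of the 6 genes was -0.18, against -0.02 for all genes. With every probe set tested by itself, 1 of 25 passed, lower in R6/2, beside 10.4% of all probe sets called and 4.56% called lower. Of the 25 differences 18 were negative.

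**Figure D1:**
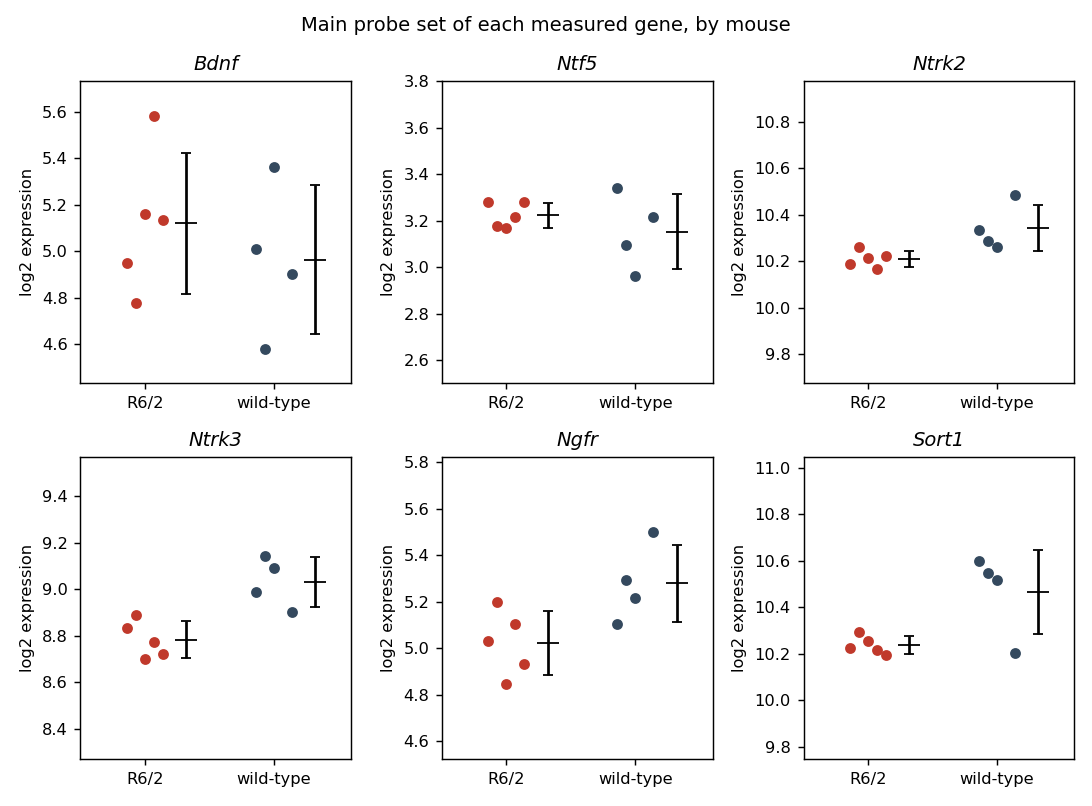
Log2 expression (vertical axis) of the main probe set of each measured gene, with 1 point for each mouse, R6/2 in red at the left and wild-type in blue at the right. Bars show mean and SD (n = 5 and 4), and sideways offsets within a group carry no meaning. For Ntrk3 the highest R6/2 value of 8.89 lies below the lowest wild-type value of 8.90, while WT_49 at 10.20 sits among the R6/2 values for Sort1.

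Among the ligands, BDNF binds TrkB. Its main probe set, 1422169_a_at, read 5.16 in R62_86, 4.95 in R62_95, 5.13 in R62_105, 4.78 in R62_107 and 5.58 in R62_109, against 5.36 in WT_46, 5.01 in WT_47, 4.90 in WT_49 and 4.58 in WT_66. The groups overlapped widely, and the mice of each genotype differed among themselves by more than the means did. The difference was 0.16 ± 0.17 (SE) with a 95% interval of -0.23 to 0.54 and an adjusted p of 0.584. A gain of up to 0.54 and a loss of up to 0.23 therefore both lie inside the interval. The value rested on single mice, at 0.029 without WT_66, 0.041 without R62_109, 0.24 without R62_107 and 0.29 without WT_46.

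The other Bdnf probe set, 1422168_a_at, varied more from mouse to mouse. It read 5.50 in R62_86, 4.67 in R62_95, 6.09 in R62_105, 4.39 in R62_107 and 5.95 in R62_109, against 5.80 in WT_46, 4.98 in WT_47, 4.15 in WT_49 and 3.73 in WT_66. High and low mice stood in both genotypes, with an SD of 0.76 in R6/2 and 0.92 in wild-type mice. Its difference was 0.66 ± 0.46 (SE), with an adjusted p of 0.425 over all probe sets.

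Ntf5 encodes neurotrophin-4, the other TrkB ligand, and lies on chromosome 7 (45413695 to 45417179). Its single probe set, 1440353_at, read 3.17, 3.28, 3.28, 3.18 and 3.22 in R62_86, R62_95, R62_105, R62_107 and R62_109, against 2.96, 3.34, 3.22 and 3.10 in WT_46, WT_47, WT_49 and WT_66. All 5 R6/2 values lay inside the wild-type range. The signal was near the bottom of the array, at percentile 6.81 of all probe sets, and the difference was 0.07 ± 0.08 (SE) with an adjusted p of 0.582.

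Ntrk2 encodes TrkB, which neurons carry as a full-length kinase and astrocytes mostly as a truncated form, and it lies on chromosome 13 (58806472 to 59133970). The sources used here do not say which form each of its 8 probe sets reads. The main probe set, 1420838_at, read 10.21 in R62_86, 10.19 in R62_95, 10.22 in R62_105, 10.26 in R62_107 and 10.17 in R62_109, against 10.26 in WT_46, 10.33 in WT_47, 10.48 in WT_49 and 10.29 in WT_66. Every R6/2 value lay below every wild-type value, by the third decimal for R62_107 and WT_46. Among the main probe sets, those of Ntrk2 and Ntrk3 had all R6/2 values below all wild-type values, 2 of 6, beside 17.3% of all genes without overlap and 8.09% with R6/2 below. The difference of -0.13 ± 0.06 (SE) had an adjusted p of 0.180 and did not pass.

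Probe set 1435196_at of Ntrk2 was the single probe set of the 25 that passed. It read 8.83, 9.09, 8.93, 8.84 and 8.71 in R62_86, R62_95, R62_105, R62_107 and R62_109, against 9.22, 9.23, 9.23 and 9.18 in WT_46, WT_47, WT_49 and WT_66. The wild-type mice stood close together and all R6/2 mice were lower. The difference was -0.33 ± 0.08 (SE), with an adjusted p of 0.0228 over all probe sets. The call was lost without R62_86, WT_46, WT_47 or WT_66, with adjusted p between 0.0503 and 0.0599, and without the 3 arrays highest in choroid plexus markers (0.214). With the cortex marker score described further on as a covariate, the difference was -0.31 and the adjusted p 0.344.

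The other Ntrk2 probe sets did not pass the threshold. Probe set 1446712_at read 6.94, 6.96, 6.31, 6.25 and 5.68 in R62_86, R62_95, R62_105, R62_107 and R62_109, against 7.30, 7.41, 6.15 and 7.82 in WT_46, WT_47, WT_49 and WT_66. WT_49 was the wild-type mouse that overlapped the R6/2 values, and the difference was -0.74 ± 0.35 (SE) with an adjusted p of 0.218. The remaining 5 had differences between -0.04 and 0.16, none past the threshold. Of the 12 measured astrocyte markers, 8 fell, beside 7.57% of all genes, and their mean level was 9.50 to 9.68 in R6/2 mice and 9.80 to 10.03 in wild-type mice. Their part in the Ntrk2 values was not tested.

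Ntrk3 encodes TrkC and lies on chromosome 7 (78179986 to 78581034). Its main probe set, 1433825_at, read 8.70 in R62_86, 8.84 in R62_95, 8.72 in R62_105, 8.89 in R62_107 and 8.77 in R62_109, against 9.09 in WT_46, 8.99 in WT_47, 8.90 in WT_49 and 9.14 in WT_66. All R6/2 values lay below all wild-type values, with R62_107 and WT_49 nearly level. Ntrk3 averaged 8.78 ± 0.08 in R6/2 mice and 9.03 ± 0.11 in wild-type mice (SD, n = 5 and 4). The difference was -0.25 ± 0.07 (SE), a ratio of 0.843, with a 95% interval of -0.40 to -0.09 and an adjusted p of 0.0353 over all genes. Over all probe sets the adjusted p was 0.0504.

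All 8 Ntrk3 probe sets had a negative difference, between -0.37 and -0.03. Because they read the same RNA of the same mice, they are not 8 independent observations. The steepest was 1455917_at, which read 6.28, 6.34, 6.02, 6.08 and 5.59 in R62_86, R62_95, R62_105, R62_107 and R62_109, against 6.56, 6.58, 6.28 and 6.32 in WT_46, WT_47, WT_49 and WT_66. Its groups overlapped and its adjusted p was 0.138. None of the other 7 Ntrk3 probe sets passed the threshold over all probe sets.

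The Ntrk3 call was near its threshold. It was lost when R62_86, R62_105, R62_109, WT_46, WT_47 or WT_66 was left out, with adjusted p between 0.0618 and 0.0972, and with the mean of its probe sets (0.0570), age as a covariate (0.268), the choroid plexus-rich arrays left out (0.181) or the cortex score as a covariate (0.511). By root mean square distance over the 9 arrays, the genes with the most similar profiles were Prokr2, a prokineticin receptor, at 0.0475, Lyst, a lysosome trafficking regulator, at 0.0507 and Kcna1, a potassium channel, at 0.0512.

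**Figure D2:**
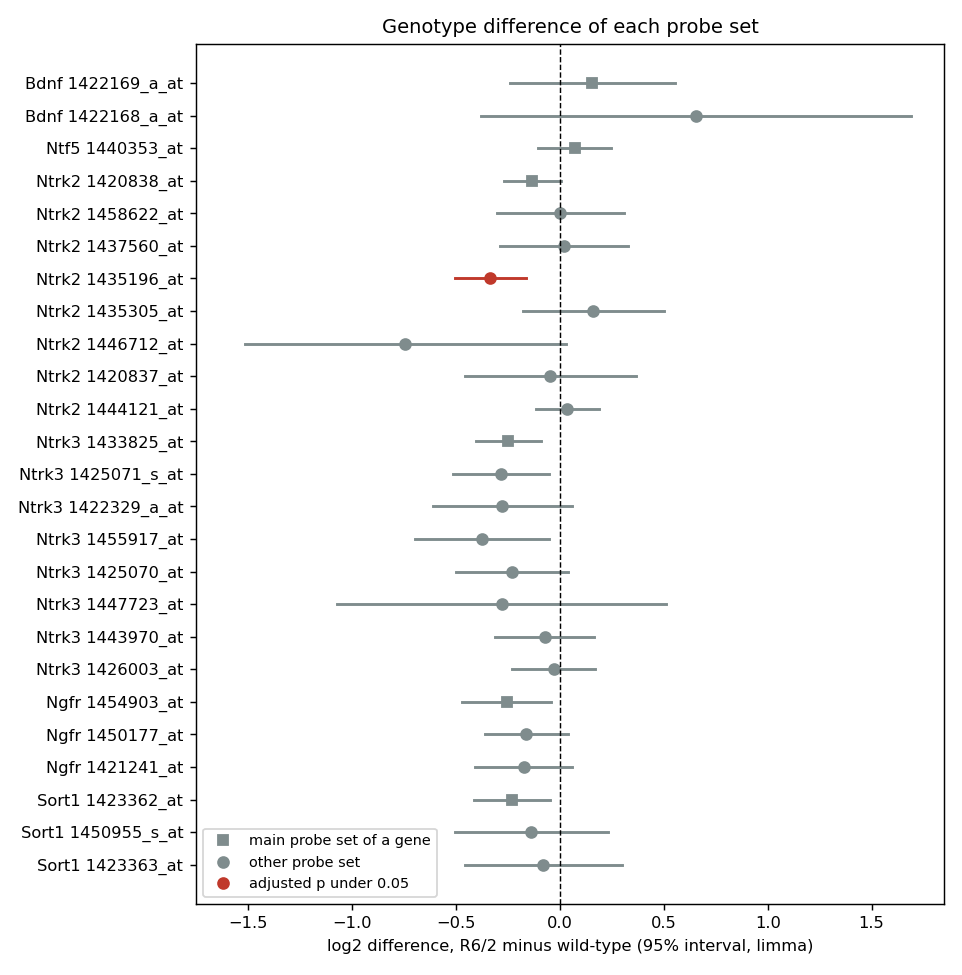
Log2 difference, R6/2 minus wild-type, of each of the 25 probe sets (horizontal axis), with 95% intervals from limma over all probe sets. Squares are main probe sets, circles are others, and red marks an adjusted p under 0.05. The 8 Ntrk3 points lie left of 0, and Ntrk2 1435196_at at -0.33 is the red point.

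Ngfr, on chromosome 11 (95568818 to 95587698), encodes p75, best known in the adult brain from basal forebrain cholinergic neurons. Its main probe set, 1454903_at, read 4.85 in R62_86, 5.03 in R62_95, 4.93 in R62_105, 5.20 in R62_107 and 5.11 in R62_109, against 5.21 in WT_46, 5.11 in WT_47, 5.50 in WT_49 and 5.29 in WT_66. The groups overlapped through R62_107, R62_109 and WT_47. The difference was -0.26 ± 0.10 (SE), with an adjusted p of 0.0940, and those of the other probe sets were -0.16 and -0.17. Of 6 cholinergic neuron markers 3 fell, beside 7.57% of all genes, with a mean level of 5.22 to 5.75 in R6/2 mice and 5.81 to 6.11 in wild-type mice. Their part in the Ngfr values was not tested.

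Sort1 lies on chromosome 3 (108283974 to 108361519). Its main probe set, 1423362_at, read 10.26 in R62_86, 10.22 in R62_95, 10.20 in R62_105, 10.29 in R62_107 and 10.21 in R62_109, against 10.52 in WT_46, 10.60 in WT_47, 10.20 in WT_49 and 10.55 in WT_66. The R6/2 mice lay within a narrow band, and WT_49 alone among wild-type mice fell into it. The difference was -0.23 ± 0.08 (SE), with an adjusted p of 0.0826. The other Sort1 probe sets differed by -0.14 and -0.08, with adjusted p of 0.659 and 0.816 over all probe sets. With its probe sets averaged, Sort1 differed by -0.15 with an adjusted p of 0.461. It passed in 2 of 19 alternatives, both without WT_49. Without WT_49 alone the difference of the main probe set was -0.32 with an adjusted p of 0.00537. Then 2 of the 6 genes passed, beside 16.4% of all genes. Without both WT_49 and R62_95, the arrays with the largest 3' minus 5' differences, Sort1 differed by -0.31 with an adjusted p of 0.00739 and Ntrk3 by -0.30 with 0.0194, again 2 of 6 beside 18.2% of all genes.

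On the main Sort1 probe set R62_95 read 10.22, the median of the R6/2 mice. On the other Sort1 probe sets it was the lowest R6/2 mouse. Probe set 1450955_s_at read 6.93 in R62_95 and 7.60 to 7.79 in the other R6/2 mice, against 7.36 in WT_49 and 7.67 to 7.84 in the other wild-type mice. Ntrk3 1422329_a_at and Ntrk2 1420837_at were likewise lowest in R62_95 among R6/2 mice and in WT_49 among wild-type mice. Other probe sets went the other way. Among others, R62_95 was the highest R6/2 mouse on Ntrk2 1435196_at (9.09) and Ntrk3 1455917_at (6.34). WT_49 was the highest wild-type mouse on Ntrk2 1420838_at (10.48) and Ngfr 1454903_at (5.50). The part of the 3' minus 5' differences in these values was not tested, and 5 of the 25 probe sets passed without these 2 arrays, beside 5.20% of all probe sets called lower. They were Ntrk2 1435196_at and 1446712_at, Ntrk3 1433825_at and 1422329_a_at, and Sort1 1423362_at, all lower in R6/2.

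Probe sets of a gene were set against each other within each mouse, which removes what an array shares. In 19 pairs of a main and another probe set, none passed when all 126 splits of the mice were enumerated in an exact permutation test (two-sided, smallest possible p 0.00794), and none had an unadjusted p under 0.05. The smallest exact p was 0.0556, for Ntrk2 1435196_at against its main probe set. The R6/2 minus wild-type difference of the first, less that of the main probe set, was -0.20, with an adjusted p over the 19 pairs of 0.704.

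Bdnf transcripts in the striatum are scarce in spiny neurons and abundant in the adjoining cortex. The cortex projection neuron markers therefore stand beside Bdnf here. Of 9 measured markers 4 rose in R6/2, beside 9.27% of all genes, and they were Neurod1, Neurod2, Neurod6 and Fezf2, named after their values were seen. Their defining marker Slc17a7, a vesicular glutamate transporter, read 8.10, 8.03, 8.65, 6.94 and 8.38 in R62_86, R62_95, R62_105, R62_107 and R62_109, against 7.88, 6.92, 5.85 and 5.58 in WT_46, WT_47, WT_49 and WT_66. The mean of the 9 markers, called the cortex score, was 7.02, 6.70, 7.37, 6.39 and 7.16 in these R6/2 mice, against 6.59, 6.30, 5.89 and 5.59 in these wild-type mice. Most R6/2 mice thus read higher than all wild-type mice, with R62_107 below WT_46. The score mixes markers of both directions. Slc17a7, Tbr1 and Emx1 had positive differences that did not pass, and Cux2 (-0.10) and Rorb (-0.11) had negative ones that did not pass.

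Bdnf 1422168_a_at put the mice in the same order as the cortex score within each genotype. R62_105 was highest, followed by R62_109, R62_86, R62_95 and R62_107, and among wild-type mice the order was WT_46, WT_47, WT_49 and WT_66. In a limma fit with genotype and the score, its slope was 1.99 ± 0.13 (SE) log2 units for each unit of score, with an adjusted p of 0.00270 for that term. It ranked 1 of 45101 probe sets by the p of that term, of which 42 passed, or 0.0931%, and 4 of the 42 belong to genes of the score. This probe set was singled out after its values were seen. The main Bdnf probe set had a slope of 0.64 ± 0.15 (SE) with an adjusted p of 0.325 over all probe sets.

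At equal cortex score, Bdnf 1422168_a_at was lower in R6/2, by -1.02 ± 0.15 (SE) with an adjusted p of 0.0394, where 0.262% of all probe sets passed. The direction is thus opposite to that of the difference without the score, 0.66. Among 13 other settings the difference ran from -1.31 to -0.69 and 2 passed the threshold. With each mouse left out in turn, 1 of 9 fits passed, the fit without WT_49. With Slc17a7 alone in place of the score, it was -0.69 with an adjusted p of 0.266. The main Bdnf probe set at equal score differed by -0.38 ± 0.16 (SE), with an adjusted p of 0.309 over all genes, of which 1.47% passed. The cortex score differed between the genotypes by 0.84, running from 6.39 to 7.37 in R6/2 and from 5.59 to 6.59 in wild-type mice. The ranges overlap little, so the difference at equal score rests on the 1 slope fitted to both genotypes.

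**Figure D3:**
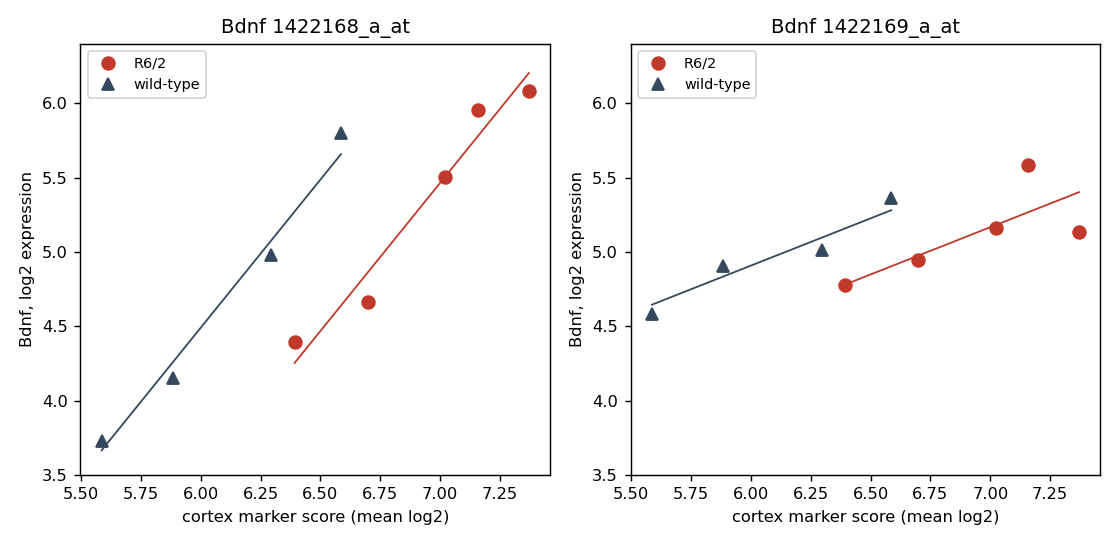
Bdnf log2 expression (vertical axis) against the cortex score, the mean log2 level of 9 cortex markers (horizontal axis), for both Bdnf probe sets. Each point is a mouse, red circles R6/2 and blue triangles wild-type, and the lines are the fit with 1 slope for both genotypes. On the left, the R6/2 line lies 1.02 log2 units below the wild-type line.

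Genes around the neurotrophins were followed in 7 lists, of which 119 genes were measured. In all 35 passed, or 29.4%, with 12 higher and 23 lower in R6/2, beside 16.8% of all genes. Of these 35, 14 belong to the list of genes induced by BDNF. The lists were chosen with earlier results of these data known, so the pooled share is not an independent test. At equal cortex score 10 of the 119 passed, beside 1.47% of all genes. Without the 3 choroid plexus-rich arrays 15 passed, beside 4.85% of all genes, and with age as a covariate 0, where 30 of all genes passed. With a gene's probe sets averaged there were 5 higher and 22 lower, beside 14.5% of all genes. In the sortilin and neurotrophin receptor family 1 of 5 passed. Sorcs2, a sortilin relative that pairs with p75, read 7.84, 8.03, 7.46, 7.85 and 7.76 in R62_86, R62_95, R62_105, R62_107 and R62_109, against 8.50, 8.54, 8.43 and 8.87 in WT_46, WT_47, WT_49 and WT_66. All R6/2 values lay below all wild-type values, and the difference was -0.80 ± 0.12 (SE) with an adjusted p of 0.00168. With the cortex score in the fit it was -0.52, with an adjusted p of 0.131. Its relatives differed by -0.04 for Sorcs1, -0.17 for Sorcs3 and 0.18 for Sorl1, and the p75-like Nradd by -0.06, none past the threshold.

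Of 12 genes for cleaving proneurotrophins and controlling it, 2 rose and none fell. This was 16.7% called, near the background of 16.8% of all genes. The 2 that rose were Serpini1, the neuroserpin that inhibits tissue plasminogen activator, with a difference of 0.78 ± 0.22 (SE), and Pcsk1, a proprotein convertase, with 0.55 ± 0.16 (SE). At equal cortex score these were 0.05 and 0.33, neither past the threshold, and Serpini1 passed in 7 of 19 alternatives and Pcsk1 in 6 of 18.

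Among 15 partners of p75 and the Trk receptors, 2 rose and 1 fell, a share near the background of 16.8% of all genes. The p75-binding Maged1 and Ngfrap1 differed by 0.32 and 0.19, though Ngfrap1 passed in 7 of 19 alternatives. For both genes the R6/2 values lay above all wild-type values, beside 17.3% of all genes without overlap. Lrig1, which restrains receptor tyrosine kinases, differed by -0.48 ± 0.10 (SE). In the Trk cascade 2 of 31 genes rose and 3 fell, or 16.1% called, near the background of 16.8% of all genes. The exchange factor Sos1 rose by 0.42 and the adaptor Gab2 by 0.44. With the probe sets of each gene averaged, these were 0.14 and 0.19, neither past the threshold. The kinases Rps6ka5, Akt2 and Pdpk1 differed by -1.18, -0.94 and -0.40, and all R6/2 values of these 3 lay below all wild-type values. With the cortex score as a covariate, Rps6ka5 passed at -0.91, while Akt2 at -0.59 and Pdpk1 at -0.39 did not.

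The list of genes that BDNF induces in neurons held 14 genes that fell of 24, and none that rose, or 58.3% called. Of all genes 16.8% were called and 7.57% called lower. The list was chosen with earlier results of these data known, so its share is not an independent test. Its median difference was -0.68, against -0.02 for all genes. Egr2, an immediate early transcription factor, read 4.37, 4.31, 3.87, 3.87 and 4.37 in R62_86, R62_95, R62_105, R62_107 and R62_109, against 6.68, 6.88, 6.52 and 7.95 in WT_46, WT_47, WT_49 and WT_66. That is a difference of -2.85 ± 0.26 (SE), with an adjusted p of 0.000143. Npas4, an activity-dependent transcription factor, differed by -2.55 ± 0.26 (SE) and Homer1, a synaptic scaffold, by -0.82 ± 0.07 (SE).

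These genes also answer to synaptic activity and other growth factors, and the spiny neuron markers fell in the same mice. The part of BDNF, of activity or of the spiny neurons in these values was not tested. Vgf, a neuropeptide precursor long used as a BDNF response gene, was named after its values were seen and differed by -0.15 with an adjusted p of 0.496. Nptx2, a synaptic pentraxin named in the same way as was Egr3, differed by -0.93 with an adjusted p of 0.000373. At equal cortex score, Egr2, Egr3, Npas4, Nptx2 and Homer1 of this list stayed past the threshold, beside 1.47% of all genes. The other called genes of the list did not.

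Genes that act on Bdnf transcription and vesicle transport held 5 that rose and 2 that fell of 21. This was 33.3% called, beside 16.8% of all genes. Creb1, which binds the cAMP response element, read 9.12, 9.23, 9.24, 9.29 and 9.24 in R62_86, R62_95, R62_105, R62_107 and R62_109, against 8.76, 8.75, 8.70 and 8.70 in WT_46, WT_47, WT_49 and WT_66. All R6/2 values lay above all wild-type values, and the difference was 0.50 ± 0.06 (SE) with an adjusted p of 0.000434. With its probe sets averaged it was 0.16, with an adjusted p of 0.153. The kinases upstream of it fell, with Camk4 at -1.34 ± 0.14 (SE) and Camkk2 at -0.91 ± 0.09 (SE). The huntingtin-associated transport partner Ahi1 rose by 0.51 and the kinesin light chain Klc1 by 0.39. With probe sets averaged, Ahi1 was 0.58 and Klc1 0.065, with adjusted p of 0.0644 and 0.653.

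Mouse Htt, whose protein drives BDNF vesicles along axons, read 7.81, 8.33, 7.91, 7.97 and 7.77 in R62_86, R62_95, R62_105, R62_107 and R62_109, against 7.68, 7.61, 6.97 and 7.67 in WT_46, WT_47, WT_49 and WT_66. The difference was 0.48 ± 0.16 (SE) with an adjusted p of 0.0643. The transgene is a human exon, so this mouse probe set does not check the genotype labels.

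**Figure D4:**
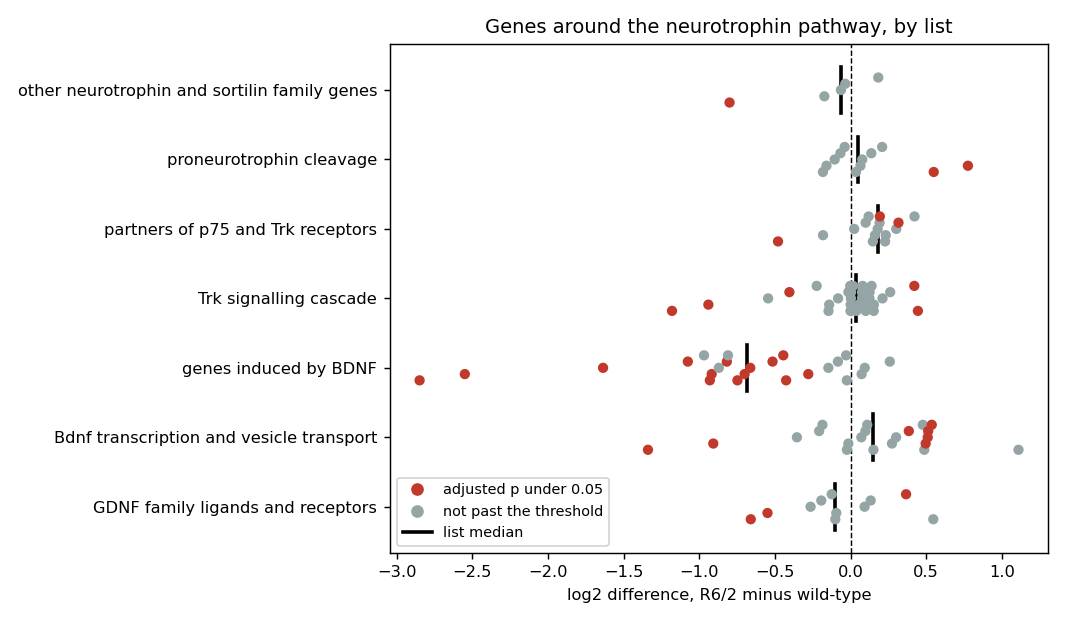
Log2 difference, R6/2 minus wild-type (horizontal axis), of every measured gene of the 7 lists, with 1 row for each list, red points for an adjusted p under 0.05 and a black bar for the list median. The list of genes induced by BDNF lies furthest left, with a median of -0.68, and its lowest point is Egr2 at -2.85.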

How the data were processed

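Striatal RNA was labelled by in vitro transcription and hybridised to Affymetrix arrays, as the labels' protocols state. The deposited values are log2 expression values of 45101 probe sets, which the authors made with RMA (affy), per the submitters' processing notes. No software version is given there. RMA gives arrays a shared distribution, so differences are relative to the rest of the array. In the annotation 34945 probe sets name exactly 1 gene, and positions come from RefSeq for GRCm38.p6.

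Genes were tested with limma 3.58.1 (R 4.3.3, two-sided, Benjamini-Hochberg, threshold 0.05) over the main probe sets of 18194 genes, and over all 45101 probe sets. Scripts were tested on simulated data. Arrays correlated at 0.979 to 0.995, and the number of arrays limits the precision. Separate mice are the replicates. Members and lists were chosen with earlier results of these data known. Named genes were the members, the sortilin family, Htt, and in each list the 3 with the smallest p among those called in each direction. Vgf, Nptx2, Egr3 and single cortex markers were named after their values were seen. Alternatives were another summary of probe sets, normalization, variance model, covariates and left-out arrays. Leaving out WT_49 with R62_95, the probe-set fit without 3 choroid plexus-rich arrays, and the alternatives of the Bdnf result at equal cortex score were added after seeing the data.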

Additional observations from a re-analysis of the deposited data

Results flagged for a closer look

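Of 104 groups of values examined, 9 held a mouse set apart from the rest of its genotype by more than Dixon's 95% limit, and chance flags about 1 in 20 groups. Among R6/2 mice, R62_95 read 3.94 on Ntrk2 1420837_at (others 4.66 to 4.79) and 6.93 on Sort1 1450955_s_at (others 7.60 to 7.79). R62_109 read 4.54 on Ntrk3 1447723_at (others 5.42 to 5.76). R62_107 read 3.16 on the dim Ntrk2 1444121_at (others 3.13 to 3.14), and R62_105 read 4.22 on Gdnf (others 4.59 to 4.71). Among wild-type mice, WT_46 read 3.97 on Ntrk3 1426003_at (others 3.70) and WT_66 read 5.55 on Gdnf (others 5.09 to 5.13). WT_49 read 5.92 on Nradd (others 5.65) and 6.97 on Htt (others 7.61 to 7.68). R62_95 and WT_49 also had the largest 3' minus 5' differences of the beta-actin control.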

How the results depend on the processing

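No paired analysis was possible because the animal numbers are not shared between the genotypes. The count of neurotrophin genes past the threshold, 1, was 0 with the probe sets of a gene averaged, age as a covariate, the cortex score as a covariate or the choroid plexus-rich arrays left out, 2 without WT_49 and R62_95, and 0 to 2 with each mouse left out in turn. The count of probe sets, 1, was 0 without the choroid plexus-rich arrays, 5 without WT_49 and R62_95, and 0 to 4 with each mouse left out. Of all probe sets, 5.20% were called lower without WT_49 and R62_95. With the cortex score the count was 1, beside 0.262% of all probe sets. That was then the Bdnf probe set and not that of Ntrk2. The 35 pathway genes (12 higher, 23 lower) became 27 with probe sets averaged (5 higher, 22 lower), 23 without moderation of the variance, 0 with age (30 of all genes were left), 10 with the cortex score and 15 without the choroid plexus-rich arrays. They were 26 to 37 with each mouse left out. The number of all genes called moved too. It was 3065 in the main fit, 2006 without moderation, 2183 without R62_105 and 2985 without R62_95. The share of all genes was 14.5% with probe sets averaged, 1.47% with the cortex score and 4.85% without the choroid plexus-rich arrays. Without WT_49 and R62_95 it was 18.2%. No pair of probe sets passed under any alternative run, with 3, 1 and 1 pairs at an unadjusted p under 0.05 without R62_95, WT_46 and WT_49. Bdnf 1422168_a_at at equal cortex score ran from -1.16 to -0.86 with each mouse left out and no longer passed in 8 of these 9 fits, nor with Slc17a7 alone (-0.69), housekeeping centring (-1.0) or the choroid plexus-rich arrays left out (-1.31). Directions turned for Bdnf (-0.38), its probe set 1422168_a_at (-1.02), Sorcs1 (0.12) and Sorl1 (-0.061) with the cortex score, for Sorcs1 with age (0.0068) and without WT_66, and for Nradd without WT_49 and without WT_49 and R62_95 (0.021). With each mouse left out, Sorcs1 ran from -0.072 to 0.0068 and Nradd from -0.086 to 0.0024. None of these differences had passed the threshold except that of the Bdnf probe set with the score. The causes were not tested. Centring on 5 housekeeping genes moved the higher share of all called genes to 41.8%, against 55.0%, and the median of all genes to -0.06. The number of arrays, 5 and 4, limits what small differences could pass, and age and genotype overlap only through R62_86.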

Other observations

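The GDNF family, another group of striatal growth factors, was followed beside the neurotrophins, and of 11 measured ligands and receptors 2 fell and 1 rose. This was 27.3% called, beside 16.8% of all genes. Gdnf, the glial cell line-derived factor, read 4.61, 4.69, 4.22, 4.71 and 4.59 in R62_86, R62_95, R62_105, R62_107 and R62_109, against 5.13, 5.13, 5.09 and 5.55 in WT_46, WT_47, WT_49 and WT_66. All R6/2 values lay below all wild-type values, and the difference was -0.66 ± 0.12 (SE) with an adjusted p of 0.00493. Nrtn, which encodes neurturin, differed by -0.55 ± 0.14 (SE) and the alternative receptor Ncam1 by 0.37 ± 0.10 (SE). Ncam1 passed in 7 of 19 alternatives and was 0.19 with its probe sets averaged, and Nrtn passed in 13 of 19. At equal cortex score none of the 3 called genes stayed past the threshold, in a fit where 1.47% of all genes passed. There Gdnf differed by -0.34, Nrtn by -0.40 and Ncam1 by 0.30.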
